A study of Mus musculus with 15 samples.

Results

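The miR-221 and miR-222 cluster is a pair of microRNA (miRNA) hairpins that lie next to each other on the mouse X chromosome. Its 3 members here, mmu-miR-221-3p, mmu-miR-221-5p and mmu-miR-222-3p (written below without the mouse prefix), were taken by name out of 683 mature miRNA names in the deposited tables. The data are small RNA libraries from 15 wild-type mice, 5 in each of 3 groups, all taken at day 14 from the basal ganglia on the operated side of the brain. Sham mice and mice with intracerebral haemorrhage (ICH) received distilled water by daily gavage. BYHWD mice received Buyang Huanwu decoction, a traditional Chinese herbal preparation, at 6.19 g/kg per day by the same route after haemorrhage. The labels do not state how the haemorrhage was made. They also name an exosome pellet as the RNA source beside the dissected tissue, and which of them was sequenced cannot be told apart here.

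A miRNA hairpin is cut into a 5p and a 3p arm, and 1 arm is usually loaded into Argonaute, where bases 2 to 8, the seed, pair with target messenger RNAs. miR-221 and miR-222 are processed from a common primary transcript and are known from human cancer cells for repressing CDKN1B, the cell cycle inhibitor p27Kip1, and the receptor KIT. They are also known from endothelial cells and from proliferating vascular smooth muscle, and their transcription has been tied in human cells to NF-kB and AP-1, factors that respond to inflammation and injury. The questions asked of the cluster are whether its members differed in level after haemorrhage and whether they differed with the decoction.

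The mature sequences are shown because the seed sets which targets the arms could share, with the seed in capitals. All come from RefSeq on build GRCm38.p6, minus strand.
miR-221-3p: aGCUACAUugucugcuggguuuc
miR-222-3p: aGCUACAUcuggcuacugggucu
miR-221-5p: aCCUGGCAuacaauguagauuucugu

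The 3p arms have the same first 8 bases, including the whole seed, and are identical at 11 of their 23 positions when aligned from the 5′ end. They differ after the seed, so reads of one can be told from reads of the other. The seed of miR-221-5p is a different one. Among the 574 of 683 table names that had a RefSeq sequence, no name outside the cluster had the seed of any member.

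The hairpins are shown with the mature arms listed by RefSeq in capitals, to place the arms within each precursor.
Mir221: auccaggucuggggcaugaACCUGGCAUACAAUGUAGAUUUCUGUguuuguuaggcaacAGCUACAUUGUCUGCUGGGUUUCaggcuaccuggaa
Mir222: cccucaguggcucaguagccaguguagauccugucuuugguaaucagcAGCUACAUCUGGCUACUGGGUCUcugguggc

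Mir221 lies at chrX:19146294-19146388 and Mir222 at chrX:19146893-19146971, with 504 bases between them. Within them, miR-221-3p spans chrX:19146307-19146329, miR-221-5p spans chrX:19146344-19146369 and miR-222-3p spans chrX:19146901-19146923. On the minus strand Mir222 is therefore transcribed before Mir221. In the GENCODE annotation of the same genome, no other gene overlapped the cluster. The nearest gene on its 5′ side was the processed transcript Gm14636 on the same strand, 10009 bases away, and the nearest on its 3′ side was the pseudogene Gm5383, 203065 bases away.

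Libraries held between 4684611 and 9860236 miRNA counts, and 652 names had enough counts to be tested. Levels are given as CPM, the count of a miRNA scaled to a common library size, after TMM scaling, which corrects library totals for a few very abundant miRNAs. Sham 4 and sham 5 stood apart from the rest, with scaling factors of 0.667 and 0.721 against 0.954 to 1.195 in the other 13 libraries. The value of the scaling therefore bears on every comparison with sham. No pair of replicates agreed within sampling noise, so all 15 libraries were counted separately. In the tables each count stands 1 row below its own name, and names were moved accordingly before any value was read.

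miR-221-3p was the most abundant member, with a mean of 1078 CPM over the 15 libraries, at rank 91 of 652. In sham libraries 1 to 5 it stood at 1104, 1440, 882, 980 and 1175 CPM. In ICH libraries it stood at 1118, 899, 1123, 1237 and 922 CPM, and in BYHWD libraries at 1233, 1069, 924, 1175 and 882 CPM. Sham 2 was the highest of all 15 and the lowest values, in sham 3 and BYHWD 5, came from different groups, so the groups overlapped almost wholly. It was among the ranks 81 to 98 in every library, on raw counts of 4352 to 11507.

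miR-222-3p, the arm with the same seed, stood at rank 119 with a mean of 603 CPM. Its sham values were 671, 768, 542, 595 and 597 CPM. Its ICH values were 625, 493, 583, 608 and 514 CPM, and its BYHWD values were 756, 525, 567, 657 and 543 CPM. Sham 2 was again the highest library and BYHWD 1 came next. The lowest was ICH 2, and the 3 groups overlapped.

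miR-221-5p, the arm opposite miR-221-3p on the same hairpin, stood at rank 175 with a mean of 232 CPM. Its sham values were 197.8, 231.3, 215.5, 363.0 and 252.0 CPM. Its ICH values were 174.6, 182.0, 311.9, 250.6 and 198.9 CPM, and its BYHWD values were 302.0, 170.3, 246.3, 185.7 and 193.8 CPM. The highest library was sham 4, 1 of the libraries that stood apart, and the groups overlapped. The other arm of the second hairpin, miR-222-5p, was not a member and is given for completeness. It was rare, with a mean of 11.3 CPM at rank 412, and ranged from 5.71 to 15.7 CPM in sham, 9.06 to 16.3 CPM in ICH and 8.31 to 13.2 CPM in BYHWD.

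The summed level of the 3p arms, which carry the same seed, was 1751 ± 295 CPM in sham, 1624 ± 199 CPM in ICH and 1666 ± 237.4 CPM in BYHWD (SD, n = 5 each). Spread within groups was moderate for the 3p arms, with coefficients of variation between 10.3% and 19.1%. It was wider for miR-221-5p, between 24.7% and 25.9%. In sham this order rested on sham 4 and sham 5. Without them the sham values were 7.8% for miR-221-5p, 24.6% for miR-221-3p and 17.1% for miR-222-3p (n = 3). The biological coefficients of variation estimated by edgeR were 18.5% for miR-221-3p, 17% for miR-222-3p and 24.4% for miR-221-5p.

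**Figure D1:**
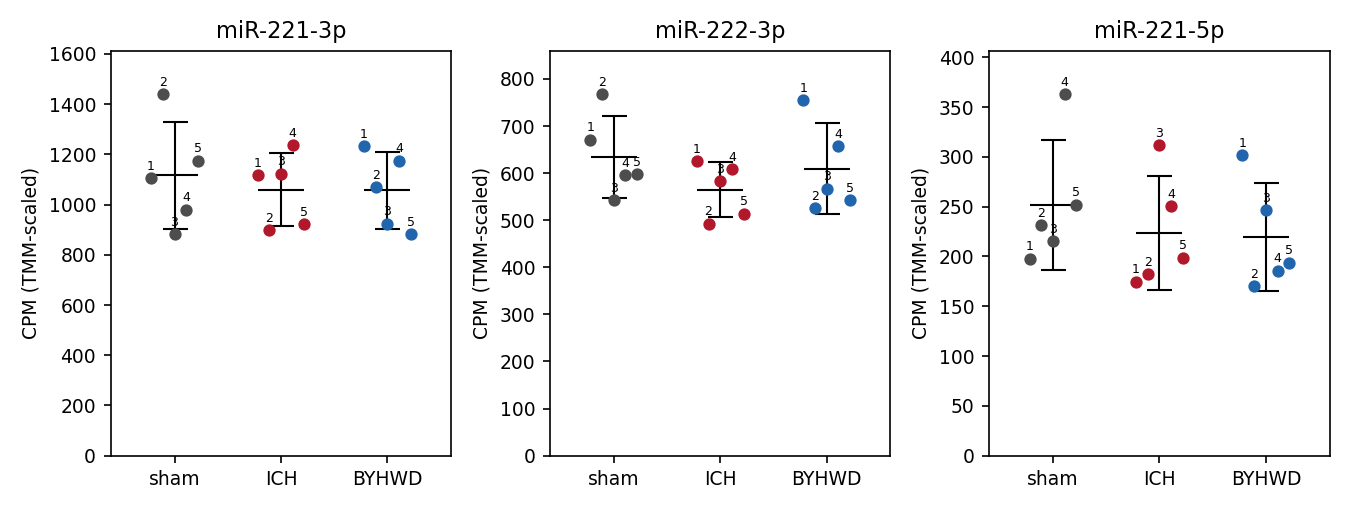
CPM after TMM scaling (y axes, starting at 0) of miR-221-3p, miR-222-3p and miR-221-5p in sham, ICH and BYHWD libraries; each point is 1 library with its replicate number, and bars give mean and SD of 5. The groups overlap in all 3 panels, with group means of 1116, 1060 and 1057 CPM for miR-221-3p.

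After haemorrhage with water, none of the 3 members was called at an adjusted p under 0.05, beside 0.767% of the 652 miRNAs tested. For none of them were the groups free of overlap, beside 3.99% of miRNAs. miR-221-3p averaged 1060 ± 144 CPM in ICH against 1116 ± 213.2 CPM in sham (SD, n = 5 each), which is -0.08 on the log2 scale (SE 0.15, adjusted p = 0.800 by edgeR). miR-222-3p averaged 565 ± 58.2 CPM in ICH and 635 ± 87.4 CPM in sham, a log2 change of -0.17 (SE 0.13, adjusted p = 0.488 by edgeR). miR-221-5p averaged 223.6 ± 57.6 CPM in ICH and 251.9 ± 65.2 CPM in sham, a log2 change of -0.17 (SE 0.21, adjusted p = 0.674 by edgeR).

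A p that misses the threshold does not show equal levels, and the intervals say how large a difference these libraries leave room for. Taken as 2 SE on either side, the ICH level relative to sham lay between 0.775 and 1.16 for miR-221-3p and between 0.742 and 1.07 for miR-222-3p. For miR-221-5p the interval was wider, from 0.665 to 1.19. In bulk RNA, a change in the number of cells that hold a miRNA and a change in its amount per cell cannot be told apart.

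Between BYHWD and sham, none of the members was called, beside 2.3% of miRNAs tested, and none had groups free of overlap, beside 3.83%. miR-221-3p averaged 1057 ± 153 CPM in BYHWD, a log2 change of -0.08 from sham (SE 0.15, adjusted p = 0.833 by edgeR). miR-222-3p averaged 610 ± 96.0 CPM, a log2 change of -0.06 (SE 0.13, adjusted p = 0.865 by edgeR). miR-221-5p averaged 220 ± 54.2 CPM, a log2 change of -0.20 (SE 0.21, adjusted p = 0.659 by edgeR). These tests use the same sham libraries as those of ICH.

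Between BYHWD and ICH, which addresses the decoction itself, no miRNA in the table was called, so the background was 0%. For 0.613% of miRNAs, and no member, the groups did not overlap. By edgeR 31 of 652 had an unadjusted p under 0.05, and DESeq2 and limma-voom also called 0, with 29 and 27 at an unadjusted p under 0.05. The level of miR-221-3p in BYHWD relative to ICH was 0.997 (2 SE interval 0.814 to 1.22). For miR-222-3p it was 1.08 (0.901 to 1.29), and for miR-221-5p it was 0.982 (0.735 to 1.31). The log2 fold changes were -0.0039, 0.11 and -0.03 in the same order, with edgeR adjusted p-values of 0.996, 0.976 and 0.996.

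With ICH and BYHWD pooled against sham, which raises the number of libraries on 1 side to 10, 7.67% of miRNAs were called and again no member. The log2 fold changes were -0.08 for miR-221-3p (SE 0.13, adjusted p = 0.778 by edgeR), -0.11 for miR-222-3p (SE 0.11, adjusted p = 0.591 by edgeR) and -0.18 for miR-221-5p (SE 0.18, adjusted p = 0.583 by edgeR). Every fold change against sham was below 0 for every member. For miR-221-3p, and for miR-222-3p in BYHWD, that direction depended on the scaling and on single libraries. With any 1 library left out, miR-221-5p stayed below 0 in each comparison with sham. So did miR-222-3p in ICH and in the pooled comparison. With library totals alone, miR-221-3p had log2 fold changes of 0.02 in ICH and 0.05 in BYHWD, and miR-222-3p had 0.06 in BYHWD. Without sham 4 and sham 5, those of miR-221-5p were 0.05 and 0.02. Without sham 2, those of miR-221-3p were 0.04 and 0.03.

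The scaling acts mainly on sham 4 and sham 5. On library totals alone, miR-221-3p stood at 654 and 847 CPM there, below each of the other 13 libraries, and miR-222-3p stood at 397 and 431 CPM, also below the rest. After TMM scaling both libraries lay inside the range of the other sham libraries for both 3p arms. For miR-221-5p the scaled values of sham 4 and sham 5, 363.0 and 252.0 CPM, lay above those of sham 1 to 3 (197.8 to 231.3 CPM). Before scaling, sham 4 and sham 5 stood at 242.2 and 181.6 CPM for this arm, and sham 1 to 3 at 231.7 to 256.0 CPM. Its unscaled means were close, at 229.6 (sham), 228.3 (ICH) and 228.5 CPM (BYHWD). The scaled means were 251.9, 223.6 and 219.6 CPM in the same order.

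**Figure D2:**
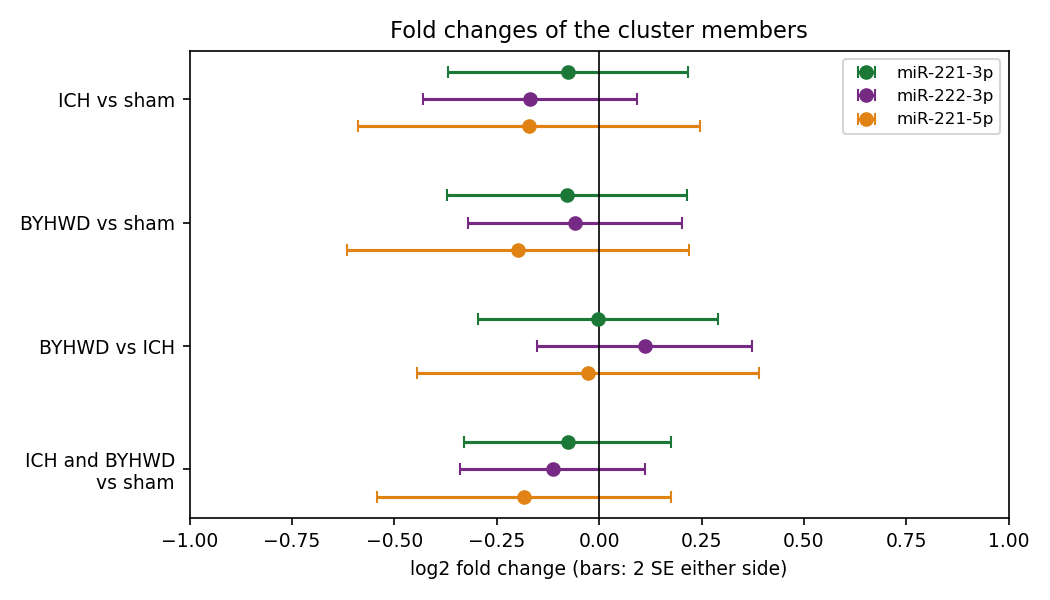
Log2 fold changes (x axis) of the 3 members in the 4 comparisons (y axis); points are edgeR estimates and bars span 2 SE on either side. All 12 bars cross 0, and those of miR-221-5p are the widest.

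The ratio of the 3p arms within a library does not depend on scaling, since both counts come from the same library. miR-221-3p outnumbered miR-222-3p in every library, by 1.62 to 2.04 times. Adapter ligation favours some small RNA ends over others, so the ratio is one of counts, not of molecules. The log2 ratio averaged 0.80 ± 0.13 in sham, 0.90 ± 0.08 in ICH and 0.80 ± 0.14 in BYHWD (SD, n = 5 each).

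The difference between ICH and sham was 0.10 (2-sided exact permutation test, p = 0.167, adjusted p = 0.595 over 6 tests). BYHWD differed from sham by -0.01 (exact permutation test, p = 0.865, adjusted p = 0.905) and from ICH by -0.11 (exact permutation test, p = 0.198, adjusted p = 0.595). The smallest p these groups of 5 allow is 0.00794. Without BYHWD 2 the last value was -0.17, at an adjusted p of 0.0476 by the same exact test. Among 14 alternatives to that value, this was the 1 stronger result, while 12 stayed the same and 1 reversed in sign.

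The arms of the miR-221 hairpin differed more from library to library. The count of miR-221-3p was between 2.70 times that of miR-221-5p, in sham 4, and 6.40 times, in ICH 1. The log2 ratio averaged 2.16 ± 0.47 in sham, 2.27 ± 0.30 in ICH and 2.29 ± 0.35 in BYHWD. ICH differed from sham by 0.11 and BYHWD from sham by 0.13, with adjusted p-values of 0.905 for both by exact permutation, and BYHWD from ICH by 0.02, also at 0.905. The 3p arm was the more abundant one in all 15 libraries and no change of arm use was detected between groups.

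**Figure D3:**
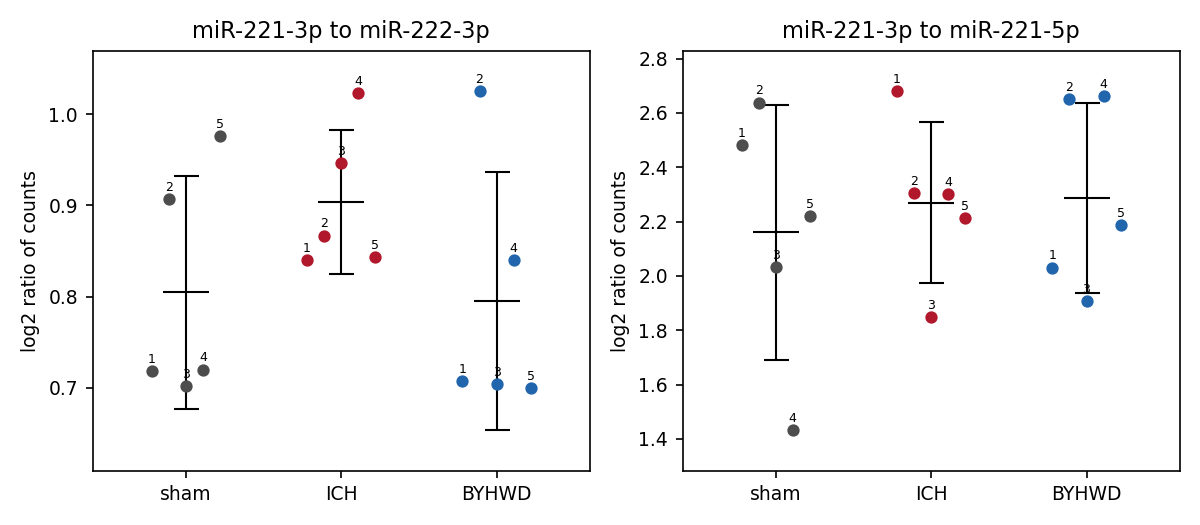
Log2 ratio of counts (y axes) of miR-221-3p to miR-222-3p and of miR-221-3p to miR-221-5p, by group; each point is 1 library with its replicate number, and bars give mean and SD of 5. All points lie above 0, and the lowest ratio of the miR-221 arms is that of sham 4.

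Over the 15 libraries the 3p arms moved together. The log2 CPM of miR-221-3p and of miR-222-3p had a Pearson r of 0.825 (permutation p = 0.00015, adjusted p = 0.00045 over 3 pairs) and a Spearman rho of 0.796 (permutation p = 0.00062, adjusted p = 0.00186). Without sham 2 and BYHWD 5, the libraries farthest from the median of miR-221-3p, r was 0.748 over 13 libraries. Within groups of 5, r was 0.898 in sham, 0.933 in ICH and 0.784 in BYHWD. The levels come from the same libraries and use the same scaling factors. The p-values are against no correlation, not against the r of other pairs of miRNAs. Among 417 miRNAs outside the cluster, the highest r with miR-221-3p was 0.805.

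Over all 15 libraries miR-221-5p followed neither 3p arm closely. Its r with miR-221-3p, from the same hairpin, was 0.202 (permutation p = 0.469, adjusted p = 0.469), its rho was 0.346 (permutation p = 0.204, adjusted p = 0.306), and r was 0.17 without the same 2 libraries. Its r with miR-222-3p was 0.314 (permutation p = 0.253, adjusted p = 0.38), its rho was 0.279 (permutation p = 0.312, adjusted p = 0.312), and r was 0.179 without sham 2 and BYHWD 1. Whether the pair of 3p arms correlated more than the pair from 1 hairpin was not tested.

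**Figure D4:**
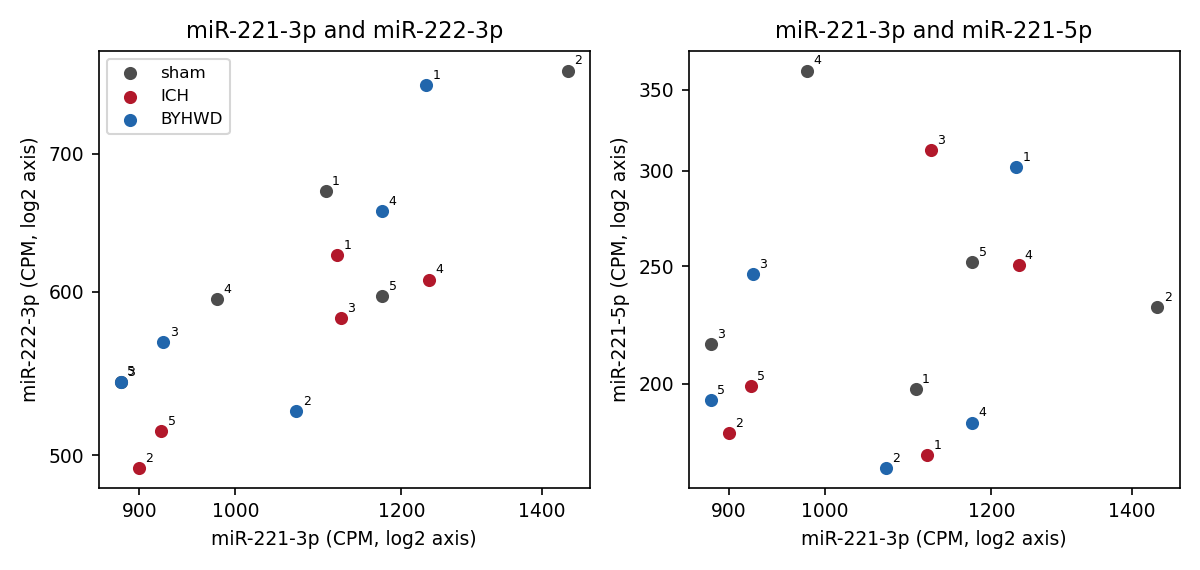
CPM of miR-222-3p and of miR-221-5p (y axes, log2 scale) against CPM of miR-221-3p (x axes, log2 scale) in the 15 libraries, coloured by group and numbered by replicate. The points of miR-222-3p rise with miR-221-3p (r = 0.825), while those of miR-221-5p are scattered (r = 0.202).

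Among 417 miRNAs of at least 10 CPM, the ones whose log2 CPM was most like that of miR-221-3p over the 15 libraries, its cluster mates aside, were miR-139-3p (r = 0.805, rho = 0.782), miR-138-5p (r = 0.763, rho = 0.65), miR-30b-5p (r = 0.752, rho = 0.646), miR-30c-5p (r = 0.732, rho = 0.711) and miR-132-3p (r = 0.732, rho = 0.689). At the other end stood miR-677-5p (r = -0.743), miR-467e-5p (r = -0.692) and miR-134-5p (r = -0.676). Most like miR-222-3p were miR-30c-5p (r = 0.772, rho = 0.793), miR-874-3p (r = 0.721), miR-30b-5p (r = 0.7), miR-344c-3p (r = 0.693) and miR-22-5p (r = 0.667). Least like it were miR-322-5p (r = -0.658), miR-219a-5p (r = -0.633) and miR-3068-3p (r = -0.6). miR-30b-5p and miR-30c-5p, members of the miR-30 family, were thus near the top for both 3p arms. These values are a ranking of many pairs on 15 libraries that share depth and scaling, and carry no test.

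Since NF-kB and AP-1 are the factors named for the cluster, its values were set beside 16 other miRNAs known to be induced by these factors or by tissue injury, of which 14 were tested. In ICH against sham 2 of the 14 rose and none fell, beside 0.767% of all miRNAs called. miR-155-5p, a macrophage miRNA of inflammatory activation, rose to 65.0 ± 13.9 CPM in ICH, with sham at 15.6 ± 4.68 CPM, a log2 change of 2.07 (SE 0.23, adjusted p = 6.26e-05 by edgeR). miR-147-3p, which Toll-like receptor signals induce in macrophages, changed by 3.07 log2 units (SE 0.41, adjusted p = 0.000328 by edgeR) on levels of at most 5.39 CPM in every library. The list had a median log2 fold change of 0.51 and all miRNAs one of -0.02. Of the 14, 9 had a log2 fold change above 0, and both arms of miR-132 and of miR-212 lay near 0, as the cluster members did.

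miR-21a-5p, induced in many injured tissues, averaged 14366 CPM in sham and 27398 CPM in ICH, a log2 change of 0.93 that missed the threshold (SE 0.21, adjusted p = 0.0502 by edgeR). miR-146a-5p, which NF-kB induces and which dampens Toll-like receptor signalling, averaged 2830 ± 1721 CPM in sham and 5113 ± 741 CPM in ICH, a log2 change of 0.85 (SE 0.31, adjusted p = 0.126 by edgeR). miR-146b-5p, its relative with the same seed, had a log2 change of -0.30 (SE 0.33, adjusted p = 0.654 by edgeR) and -0.47 in BYHWD (SE 0.33, adjusted p = 0.461 by edgeR). Without sham 4 and sham 5, the log2 fold change of miR-146a-5p was 1.62 (SE 0.17, adjusted p = 3.10e-05 by edgeR) and 3 of the 14 were called. Leaving out single libraries gave 2 to 4 calls among them.

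In BYHWD against sham 3 of the 14 rose and 1 fell, beside 2.3% of all miRNAs called. The risers were miR-155-5p at 52.0 ± 15.4 CPM (log2 fold change 1.75, SE 0.23, adjusted p = 0.000353 by edgeR), miR-147-3p (3.08, SE 0.41, adjusted p = 0.000353 by edgeR) and miR-21a-3p, the rare arm of the miR-21a hairpin (1.10, SE 0.27, adjusted p = 0.0474 by edgeR). miR-31-5p fell by 1.28 on the log2 scale (SE 0.32, adjusted p = 0.0474 by edgeR). Without sham 4 and sham 5 that fall was 0.58 and was not called (adjusted p = 0.242), nor was miR-21a-3p (adjusted p = 0.117), while miR-146a-5p then rose by 1.14 (adjusted p = 0.0019 by edgeR). With single libraries left out, 2 or 3 of the list rose. The median of the list was 0.13 in BYHWD against sham, with all miRNAs at 0.02. Between BYHWD and ICH no miRNA of the list was called and its median was -0.18, with all miRNAs at 0.00. With ICH and BYHWD pooled against sham, where 7.67% of all miRNAs were called, 5 of the 14 rose and 1 fell. The risers were miR-155-5p, miR-147-3p, miR-147-5p, miR-21a-3p and miR-21a-5p, the last with a log2 change of 0.82 (SE 0.19, adjusted p = 0.0225 by edgeR), and miR-31-5p fell. Without sham 4 and sham 5, 3 rose and none fell, and miR-21a-5p was not called (0.90, adjusted p = 0.0725 by edgeR).

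**Figure D5:**
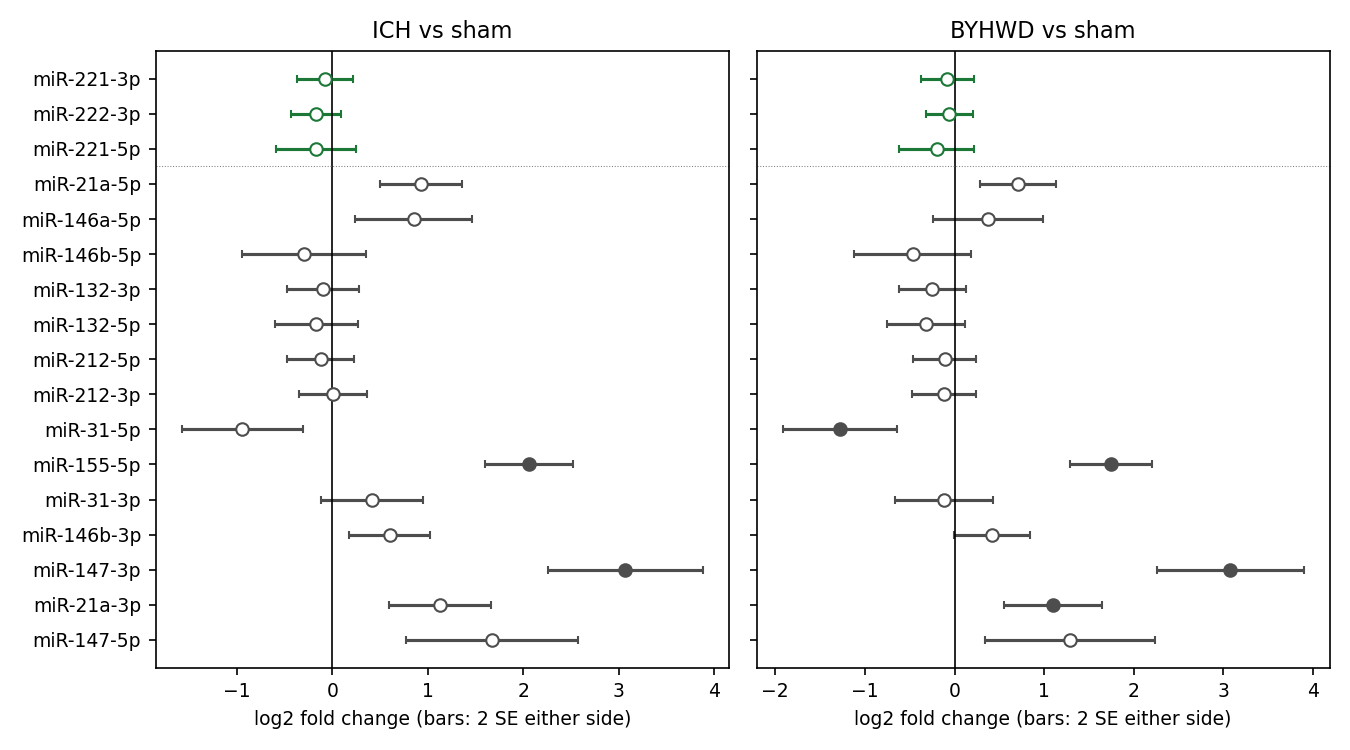
Log2 fold changes (x axes) in ICH and in BYHWD against sham for the 3 cluster members (above the dotted line) and 14 other injury-related miRNAs; bars span 2 SE on either side and filled points have an edgeR adjusted p under 0.05. The members lie near 0, while miR-155-5p and miR-147-3p lie to the right, at 2.07 and 3.07 in ICH. Other miRNAs of the list also lie near 0 in ICH, among them miR-132-3p (-0.10), miR-132-5p (-0.17), miR-212-3p (0.01) and miR-212-5p (-0.12). Of the 14, 9 lie above 0 in ICH and 7 in BYHWD.

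Within libraries, miR-221-3p counts were 49.0 to 106 times those of miR-155-5p in sham, 12.7 to 21.96 times in ICH and 13.9 to 34.6 times in BYHWD. The miRNA to divide by was chosen after its rise had been seen, so these ratios are a description with no test. The group means of miR-221-3p, the numerator, are the 1116, 1060 and 1057 CPM given above.

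The cell types in which the cluster is known were followed through marker miRNAs. Of the endothelial list, 2 of 4 names were tested, neither was called, and the median log2 fold change was -0.11 in ICH and -0.04 in BYHWD against sham. miR-126a-3p, the defining endothelial miRNA, averaged 12127 CPM in sham, 10718 CPM in ICH and 10650.2 CPM after BYHWD (log2 fold changes -0.18 and -0.19, adjusted p = 0.518 and 0.513 by edgeR). miR-126a-5p, the other arm of its hairpin, averaged 756 CPM in sham, 737 CPM in ICH and 816 CPM in BYHWD, also without a call. Of the 4 mural cell miRNAs, from smooth muscle and pericytes, none was called, and the medians were 0.03 and 0.11. miR-143-3p, the main one of them, had log2 fold changes of 0.04 and 0.19 (adjusted p = 0.94 and 0.727 by edgeR).

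Of all miRNAs, 0.767% were called in ICH against sham, 2.3% in BYHWD against sham and 7.67% in the pooled comparison. Some leukocyte and microglial markers rose. Of 7 tested, miR-155-5p, which is also on the injury list, and miR-142a-3p, a miRNA of blood cells, rose in ICH and in BYHWD, and the list medians were 1.53 and 1.32. miR-142a-3p averaged 17.7 CPM in the sham libraries, 57.6 CPM after ICH and 52.6 CPM after BYHWD (log2 fold changes 1.70 and 1.57, adjusted p = 0.00395 and 0.00964 by edgeR). Without sham 4 and sham 5 its log2 fold change in BYHWD was 1.47 (adjusted p = 0.0526 by edgeR). In the pooled comparison 4 of the 7 rose, miR-142a-5p and miR-223-3p being the others. The most abundant of the list, the lymphocyte miRNA miR-150-5p, averaged 207 CPM in sham and 226 CPM in ICH and was not called. The 5 mesenchymal names tested held 4 distinct sets of counts, since miR-199a-3p and miR-199b-3p have the same counts in every library. Of these 4, none was called in ICH (median 0.97), 2 rose in BYHWD (median 1.21), namely miR-199a-3p and miR-199b-5p, and all 4 rose in the pooled comparison (median 1.10). miR-199a-3p averaged 133 CPM in sham, 253 CPM in ICH and 307 CPM in BYHWD (adjusted p = 0.0117 by edgeR for BYHWD). In BYHWD none was called without sham 4, without sham 5 or without BYHWD 5, and in the pooled comparison none was called without sham 4 and sham 5 together. Whether the share of such cells plays a part in the levels of the cluster was not tested.

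Among the other lists, no member was called in ICH or in BYHWD against sham. The medians in that order were -0.22 and -0.22 for 9 neuronal miRNAs, 0.38 and 0.37 for 5 oligodendrocyte miRNAs, 0.32 and 0.57 for 8 of choroid plexus and epithelium, and -0.60 and -0.03 for red cells, where 7 names held 5 distinct sets of counts. In the pooled comparison the neuronal miR-124-5p fell by 0.60 on the log2 scale (adjusted p = 0.0351 by edgeR), a call lost without sham 4 and sham 5. No other member of these 4 lists was called there, beside 7.67% of all miRNAs. miR-9-5p, a miRNA of neural cells, averaged 101894 CPM in sham and 104489 CPM in ICH. The most abundant oligodendrocyte miRNA, miR-219a-2-3p, averaged 12786 ± 8045 CPM in sham, 8834 ± 791 CPM in ICH and 7911 ± 540 CPM in BYHWD (SD). Its sham libraries ranged from 5756 to 23192 CPM, and the adjusted p-values against sham were 0.356 and 0.214 by edgeR. miR-1298-5p led the choroid plexus list with 5304 ± 6138, 6296 ± 5024 and 7254 ± 3731 CPM. miR-451a led the red cell list with 119 ± 89.1, 70.1 ± 28.3 and 106 ± 106 CPM (mean and SD in the same order of groups). Markers of neurons and oligodendrocytes were thus abundant in the libraries.

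Other miRNAs with reports of targeting Cdkn1b, the best known target of the cluster, were taken as a last list. Of 6 names 5 were tested and none was called, with medians of 0.23 in ICH and 0.13 in BYHWD against sham and -0.13 between BYHWD and ICH. The most abundant, miR-148a-3p, averaged 10071 ± 3850 CPM in sham, 15876 ± 5522 CPM in ICH and 14533 ± 5399 CPM after BYHWD (log2 fold changes 0.66 and 0.53, adjusted p = 0.263 and 0.386 by edgeR). Without sham 4 and sham 5, miR-152-3p rose in ICH (log2 fold change 1.24, adjusted p = 0.00693 by edgeR) and in BYHWD (1.14, adjusted p = 0.011 by edgeR), having spread from 249 to 1476 CPM over all 5 sham libraries. Cdkn1b itself, a messenger RNA, was not measured in these libraries.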

How the data were processed

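Per the labels' protocols, total RNA was made into small RNA libraries with a NEBNext kit and selected by size. The submitters' processing notes list cutadapt, Bowtie and edgeR without versions, and hg38, a human assembly, although the samples are mouse. They do not tell how reads with several matches were counted. Deposited tables hold raw counts per mature miRNA, as the whole numbers in them show. Each of the 15 tables held 929 counts beside 928 names, the first count belonging to no name. Among 103 pairs of rows with the same name, 90 agreed within 0.1 log2 once names were moved by 1 row, against 26 as printed, and so names were moved. Each of the 683 names was represented by its row of largest total, which left 66.6% to 74.8% of counts. Each member had 1 row.

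From these counts, edgeR 4.0.16 in R 4.3.3 was run with its default filter, TMM scaling and robust quasi-likelihood tests on all 15 libraries in 1 fit, with Benjamini-Hochberg adjustment over 652 names and a threshold of 0.05. Ratios used a pseudocount of 0.5 and exact permutation over 252 arrangements, and correlations used 100000 permutations (SciPy 1.17.1). DESeq2 1.42.0, limma 3.58.1, other scalings, no filter, all rows, names as printed, a replicate block and leaving out libraries were alternatives. The edgeR step was tested on simulated data. The labels do not say whether libraries of a group were run together. If they were, group and run could not be told apart. The p-values set group differences against the spread between these libraries. The members and lists were chosen with earlier results of these data known. Named beside the members were, by rule, the most abundant of each list (up to 3 of the injury and endothelial lists), and the 5 miRNAs most and 3 least like each 3p arm. Other list members were named because they were called, except the arms of miR-132 and miR-212, named because they lay near 0.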

Additional observations from a re-analysis of the deposited data

How the results depend on the processing

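Over 309 alternatives to the 12 fold changes of members, 0 had an adjusted p under 0.05, and the lowest was 0.138. With names as printed, the counts beside a member's name belong to another name, 1 row above. Those values are therefore not values of the member itself. Of the 309 values, 30 were opposite in sign to the main estimate, names as printed included. Those of miR-222-3p in ICH against sham, BYHWD against ICH and both against sham turned with names as printed alone. For miR-221-3p, library totals alone gave log2 fold changes of 0.018 (ICH against sham), 0.047 (BYHWD against sham), 0.030 (BYHWD against ICH) and 0.033 (both against sham). Its BYHWD against ICH value also turned with DESeq2 size factors (0.0011), DESeq2 (0.0012), all rows (0.040), names as printed (0.12) and only the groups compared (0.0047). For miR-222-3p, names as printed gave 0.39, -0.52 and 0.13 (ICH against sham, BYHWD against ICH, both against sham), and library totals gave 0.057 in BYHWD against sham. For miR-221-5p, leaving out sham 4 and sham 5 gave 0.047, 0.021 and 0.034 against sham. Its BYHWD against ICH value was 0.0011 with library totals and 0.017 with all rows. For the settings other than names as printed, the cause was not tested.

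With 1 library left out, fold changes in the order of the 4 comparisons ran from -0.15 to 0.036, -0.15 to 0.031, -0.069 to 0.057 and -0.15 to 0.034 for miR-221-3p. They ran from -0.22 to -0.09, -0.15 to 0.021, 0.02 to 0.16 and -0.17 to -0.03 for miR-222-3p, and from -0.32 to -0.0056, -0.34 to -0.06, -0.17 to 0.12 and -0.30 to -0.03 for miR-221-5p. Counts of called miRNAs ran from 4 to 31 (ICH), 2 to 54 (BYHWD) and 6 to 93 (both), each against sham, and 0 to 0 between BYHWD and ICH.

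miRNAs called in ICH against sham were 5, but 10 with upper quartile scaling, 9 with library totals and 48 by DESeq2. In BYHWD against sham they were 15, but 52 by DESeq2, 23 with all rows, 7 without sham 4 and sham 5 and 9 in a fit of those groups alone. There 13 rose and 2 fell, and with upper quartile scaling 9 and 3. For both against sham they were 50, but 32 with library totals, 84 by DESeq2, 17 by limma-voom and 12 without sham 4 and sham 5. There 22 rose and 28 fell, and with library totals 21 and 11. Library totals moved the median of all miRNAs to 0.07 in ICH and 0.15 in BYHWD.

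The log2 ratio of miR-221-3p to miR-222-3p became 0.019 in BYHWD against sham without sham 4 and sham 5. With names as printed, where counts of other names stand beside these names, it became -0.65, 0.061 and 0.71. With 1 library left out it ran from 0.07 to 0.14, -0.067 to 0.033 and -0.17 to -0.079. That of miR-221-3p to miR-221-5p became -0.115 (ICH) and -0.097 (BYHWD) without sham 4 and sham 5, and ran from -0.074 to 0.23, -0.056 to 0.25 and -0.087 to 0.12.

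Same-numbered libraries did not deviate together (r from -0.43 to 0.22, 3 of 15 pairs over 0.1), so no pairing by number was seen. Whether equal numbers mark a shared batch cannot be told from these values. With the replicate block, miR-221-3p was at -0.07, -0.08 and -0.01, no member was called, and calls were 5 in ICH, 9 in BYHWD and 5 for both against sham. Depth limits miR-222-5p most, with 41 to 127 counts a library.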
